A study of Mus musculus with 28 samples.

Results

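The 8 genes described here belong to the core circadian clock and were followed in ventricular myocardium of mice with and without kidney disease: Arntl, Clock, Npas2, Nr1d1, Nr1d2, Rora, Bhlhe40 and Bhlhe41. They were chosen by symbol, as the rows of the gene count table that carry these names, and all 8 were found among 45513 genes. Each of the 8 passed the filter on low counts, which left 24273 genes for testing. No measured value entered the choice by symbol, although the list was drawn up with earlier results of these data known.

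In the circadian clock, the product of Arntl (BMAL1) pairs with the product of Clock or of its paralog Npas2, and the pair activates genes that carry an E-box, a short DNA motif. Among the activated genes are Nr1d1 and Nr1d2, which encode the nuclear receptors REV-ERB alpha and REV-ERB beta, and Bhlhe40 and Bhlhe41, which encode the repressors DEC1 and DEC2. The REV-ERB receptors repress Arntl, Clock and Npas2 through response elements that RORA, the product of Rora, binds as an activator, while DEC1 and DEC2 compete with the activators for E-boxes. Cardiac muscle runs this clock in its own cells, and there transcripts of the activators and of the REV-ERB genes peak at nearly opposite times of day.

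The hearts came from 28 adult male C57BL/6 mice, all fed a diet with 1% hydroxyproline, an oxalate precursor, and 0.5% calcium. Surgery at 6 weeks of age was either 5/6 nephrectomy, which removes most of the renal tissue and served to induce chronic kidney disease (CKD), or a sham operation. On day 7 each mouse was gavaged with 200 µl that held either Oxalobacter formigenes (Oxf), a gut bacterium that degrades oxalate, or its culture medium (vehicle). The groups were sham-vehicle (10 mice, numbered 901 to 910), CKD-vehicle (6 mice, 913 to 920), sham-Oxf (5 mice, 921 to 929) and CKD-Oxf (7 mice, 931 to 940), with 1 library per mouse. The series describes 10 mice a group; the others were not analysed here. The series asks how colonization bears on the heart in CKD. The time of day of collection is not given in the sources used here. Mouse numbers run in blocks by group, and library numbers run in the same order, so between groups the number of the mouse, the order of the libraries and the treatment cannot be told apart. Without the time of collection, clock phase at collection and treatment cannot be told apart between groups either. Within a group, surgery and gavage are constant and the mouse number varies. Library numbers rise with it there too, so a slope on mouse number cannot be told apart from library order.

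Libraries held 19.8 M to 65.4 M counts (M for mega, median 38.1 M), and the 8 genes had between 53 and 10624 counts in a library. Mouse 921 of sham-Oxf stands apart, with the lowest depth and 15879 genes with a count against at least 27128 in every other library. Mouse 934 of CKD-Oxf had the second lowest number, 27128. It held 20.6% of its counts in 7SL RNA, a scaffold RNA that helps to target secreted proteins, next to 21.0% in mouse 916 of CKD-vehicle, the highest share of the series. The group medians of this share were 10.1% (sham-vehicle), 14.0% (CKD-vehicle), 2.70% (sham-Oxf) and 7.73% (CKD-Oxf). Its part in the results was not tested beyond adding it to the model. All 8 markers of ventricular cardiomyocytes had counts in every library, with a summed level of 17018 to 44582 CPM (counts scaled for the depth of each library, with TMM factors). Summed levels of 4 fibroblast markers ranged over 214.7 to 624.0, 293.4 to 614.9, 210.8 to 449.2 and 188.7 to 493.9 CPM in the same order of groups, with medians of 401.0, 388.2, 271.2 and 264.9 CPM. Markers of other tissues varied between hearts, with 62.2 to 2523 CPM for 4 atrial, 0.047 to 350.8 CPM for 4 adipose and 0.98 to 528.6 CPM for 5 skeletal muscle genes, the last highest in mouse 913; their part in the results was not tested. The 6 immediate-early genes, which respond to handling and anaesthesia, summed to 74.3 to 178.6, 46.2 to 267.6, 83.6 to 262.4 and 48.8 to 359.4 CPM in the same order. In whole tissue, fewer cells of a type and less RNA per cell cannot be told apart.

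To show which control letters lie next to the start sites of the 8 genes, windows from 250 bases before to 50 bases after each RefSeq start (mouse build GRCm38.p6) were searched on both strands for 5 motifs. These were CACGTG (the E-box), CACGTT (an E-box variant), AGGTCA and GGGTCA (core hexamers of the elements that REV-ERB and ROR proteins bind) and TTANGTAA (the D-box). There were 10 windows for 7 of the 8 genes, none of them for Bhlhe40, and they held 5 matches. The stretches around the matches are printed 5′ to 3′ on the strand of the gene, with the match in capitals.
Bhlhe41, chr6:145865538-145865603, minus strand, E-box 153 bases before the start: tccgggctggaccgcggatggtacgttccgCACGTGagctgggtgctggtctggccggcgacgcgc
Nr1d1, chr11:98775380-98775445, minus strand, E-box variant read on the opposite strand 28 bases before the start: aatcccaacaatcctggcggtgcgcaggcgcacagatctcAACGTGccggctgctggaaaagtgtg
Nr1d2, chr14:18239148-18239213, minus strand, hexamer 77 bases before the start: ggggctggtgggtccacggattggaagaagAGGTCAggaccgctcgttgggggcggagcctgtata
Arntl, chr7:113207530-113207559, plus strand, hexamer 31 bases after 1 of its starts: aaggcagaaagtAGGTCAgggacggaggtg
Clock, chr5:76303596-76303641, minus strand, hexamer read on the opposite strand 119 bases before 1 of its starts: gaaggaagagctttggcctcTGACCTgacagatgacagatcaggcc
The windows of Npas2 and Rora held none of the 5 motifs. Over all 32851 windows of the table, CACGTG was found in 7.15%, CACGTT in 4.68%, AGGTCA in 16.3%, GGGTCA in 13.7% and TTANGTAA in 2.32%. A match describes letters in the window and is not evidence of binding.

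Arntl (ENSMUSG00000055116, chr7:113207465-113314126, plus strand) had 3.65, 13.1 and 27.4 CPM as its lowest, median and highest level in sham-vehicle, and 19.0, 20.8 and 37.3 CPM in CKD-vehicle. In sham-Oxf its levels in mice 921, 923, 925, 927 and 929 were 2.51, 5.02, 2.15, 1.59 and 1.93 CPM. In CKD-Oxf the lowest, median and highest were 3.24, 5.96 and 15.1 CPM. Every CKD-vehicle heart lay above every heart of both Oxf groups, and the sham-vehicle hearts spanned a 7.51-fold range that reached into both. Of all genes, 0.478% separated CKD-vehicle from CKD-Oxf. The share for CKD-vehicle and sham-Oxf, which differ in both surgery and gavage, was not counted. Mean Arntl levels were 24.2 ± 7.22 CPM for the 6 CKD-vehicle hearts (± SD), 13.7 ± 8.31 CPM for the 10 sham-vehicle hearts, 6.71 ± 4.003 CPM for the 7 CKD-Oxf hearts and 2.64 ± 1.37 CPM for the 5 sham-Oxf hearts.

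Clock (chr5:76209868-76304792, minus strand), the classical partner of BMAL1, had 47.3, 65.8 and 73.8 CPM as lowest, median and highest level in sham-vehicle, and 58.3, 83.3 and 103.8 CPM in CKD-vehicle. Its sham-Oxf levels were 52.0, 34.3, 44.5, 43.5 and 39.5 CPM in mice 921, 923, 925, 927 and 929, and its CKD-Oxf levels were 40.0, 49.8 and 65.0 CPM. The ranges of CKD-vehicle and sham-Oxf did not meet, those of all other pairs of groups overlapped, and no group of Clock spanned more than 1.78-fold, against up to 7.51-fold for Arntl. How many of all genes separated CKD-vehicle from sham-Oxf was not counted.

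Npas2 (chr1:39193731-39363236, plus strand), the alternative partner, had 3.01, 5.72 and 11.8 CPM in sham-vehicle and 8.16, 9.69 and 14.8 CPM in CKD-vehicle. In sham-Oxf the 5 mice had 5.31, 3.31, 2.99, 3.03 and 3.10 CPM in the same order, and in CKD-Oxf the lowest, median and highest were 1.73, 3.40 and 9.03 CPM. Mouse 931, the highest CKD-Oxf heart for Arntl, was also the highest for Npas2 and the only heart of either Oxf group within the CKD-vehicle range of Npas2. Mouse 934 was the lowest CKD-Oxf heart for both.

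**Figure D1:**
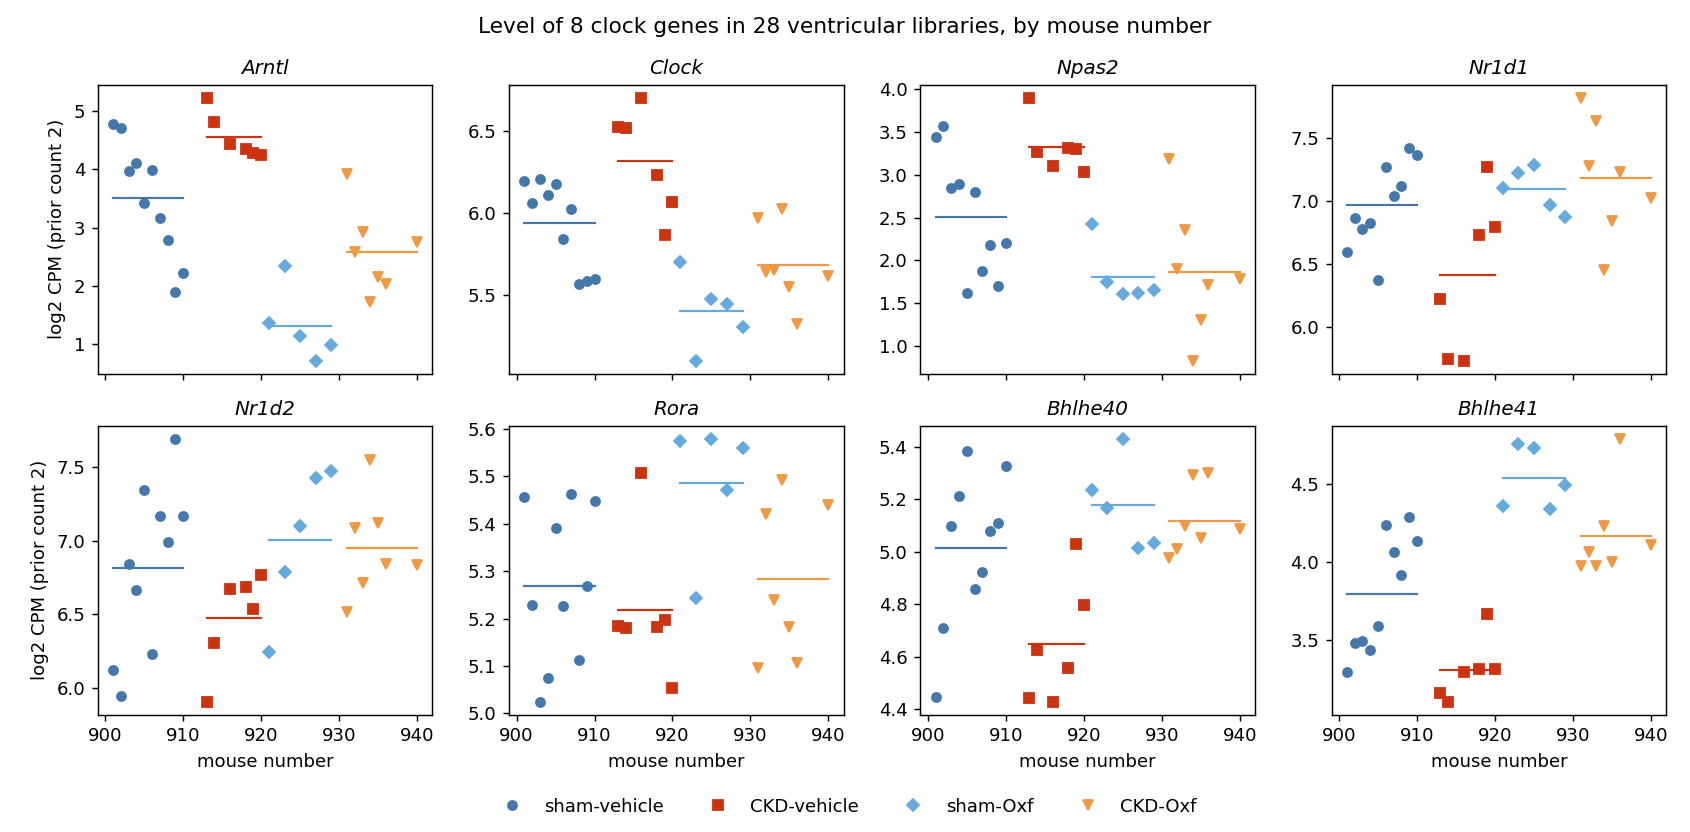
Level of each of the 8 genes (y axis, log2 CPM with a prior count of 2; each panel has its own scale) against mouse number (x axis), with 1 point per heart, colour and shape for the group, and a line at the mean of each group. Arntl falls from 27.4 CPM in mouse 901 to 3.65 CPM in mouse 909 within sham-vehicle, and its CKD-vehicle points lie above those of both Oxf groups.

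Among the nuclear receptors, Nr1d1 (chr11:98767932-98775333, minus strand) had 82.8, 123.8 and 171.1 CPM as lowest, median and highest level in sham-vehicle and 53.2, 90.3 and 153.9 CPM in CKD-vehicle. Its sham-Oxf levels were 137.4, 149.4, 156.2, 125.3 and 117.3 CPM in mice 921 to 929, and its CKD-Oxf levels were 87.4, 150.0 and 225.3 CPM. The 3 lowest hearts of the series were mice 916, 914 and 913, all CKD-vehicle, while mouse 919 of the same group, at 153.9 CPM, lay above the sham-vehicle median. The groups overlapped. The lowest heart for Nr1d1 had the highest 7SL share of its group in sham-vehicle (mouse 905, 19.9%), CKD-vehicle (mouse 916, 21.0%) and CKD-Oxf (mouse 934, 20.6%). Mouse 919 had the lowest share of CKD-vehicle, 2.26%. In sham-Oxf, mouse 921 had the highest share, 10.3%, and the median level of Nr1d1. The part of this share in the levels of Nr1d1 was not tested beyond adding it to the model.

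Nr1d2 (chr14:18204054-18239127, minus strand) had 61.6, 121.0 and 206.7 CPM in sham-vehicle and 60.0, 97.3 and 109.0 CPM in CKD-vehicle. In sham-Oxf it stood at 75.6, 110.5, 137.2, 172.4 and 177.9 CPM in mice 921, 923, 925, 927 and 929. Each mouse was thus above the one numbered before it, and how many of all genes did so is not given here. In CKD-Oxf the values were 91.6, 114.5 and 187.6 CPM, and mouse 934, the lowest of its group for Arntl, Npas2 and Nr1d1, was the highest for Nr1d2. Its library also had the highest 7SL share of CKD-Oxf, 20.6%.

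Rora (chr9:68653786-69388246, plus strand) varied little. Its lowest, median and highest levels were 32.5, 38.0 and 44.1 CPM in sham-vehicle, 33.2, 36.3 and 45.4 CPM in CKD-vehicle and 34.2, 37.7 and 44.9 CPM in CKD-Oxf, and the sham-Oxf mice had 47.6, 37.8, 47.7, 44.3 and 47.1 CPM. All 4 groups of Rora overlapped, and none spanned more than 1.37-fold; it had the narrowest range of the 8 genes in every group but CKD-Oxf, where Bhlhe40 spanned 1.25-fold and Rora 1.32-fold.

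Of the E-box repressors, Bhlhe40 (chr6:108660629-108666925, plus strand) had 21.8, 34.0 and 41.7 CPM as lowest, median and highest level in sham-vehicle, and 21.5, 24.1 and 32.6 CPM in CKD-vehicle. Its sham-Oxf levels were 37.6, 35.9, 43.1, 32.3 and 32.7 CPM, and its CKD-Oxf levels were 31.4, 34.0 and 39.3 CPM. Only mouse 919 of CKD-vehicle reached into the range of the Oxf groups.

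Bhlhe41 (chr6:145858243-145865558, minus strand) had 9.76, 13.5 and 19.5 CPM in sham-vehicle and 8.53, 9.81 and 12.6 CPM in CKD-vehicle. The sham-Oxf mice had 20.5, 27.0, 26.6, 20.2 and 22.5 CPM, and CKD-Oxf had 15.7, 16.7 and 27.6 CPM. Every sham-Oxf heart was above every vehicle heart, and every CKD-Oxf heart was above every CKD-vehicle heart. Of all genes, 0.227% separated sham-Oxf from sham-vehicle and 0.478% separated CKD-Oxf from CKD-vehicle. The share for sham-Oxf and CKD-vehicle was not counted. Mean Bhlhe41 levels were 23.3 ± 3.28 CPM for the 5 sham-Oxf hearts (± SD), 18.2 ± 4.28 CPM for the 7 CKD-Oxf hearts, 14.2 ± 3.67 CPM for the 10 sham-vehicle hearts and 9.92 ± 1.43 CPM for the 6 CKD-vehicle hearts.

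Levels of different genes were ranked after division by the total exon length of each gene. On this scale (CPM per kilobase of exon), sham-vehicle means ran from Nr1d1 at 41.6 ± 9.51 and Nr1d2 at 22.3 ± 8.46 over Bhlhe40 at 6.98 ± 1.31, Clock at 4.52 ± 0.80 and Rora at 2.96 ± 0.34 to Bhlhe41 at 2.11 ± 0.55, Arntl at 1.82 ± 1.10 and Npas2 at 1.31 ± 0.65 (SD, n = 10). The last 3 neighbours differed by less than their spread between hearts. In sham-Oxf the order at the low end changed: Arntl was lowest at 0.35 ± 0.18 CPM per kilobase (SD, n = 5), and Npas2 stood at 0.74 ± 0.21.

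Some of these counts could be shared with other genes. Exons of Nr1d1 overlap those of Thra, a thyroid hormone receptor gene on the opposite strand, over 263 bases, and whether the counting used strand is not given in the sources used here. Thra averaged 59.9 ± 9.81 and 59.3 ± 9.51 CPM (± SD) in the sham-vehicle and sham-Oxf hearts, and 62.7 ± 3.01 and 68.3 ± 15.0 CPM in the CKD-vehicle and CKD-Oxf hearts. In the GENCODE M21 annotation, opposite-strand transcripts also overlap exons of Bhlhe41 over 1280 bases, Bhlhe40 over 118, Rora over 82 and Arntl over 33, and values of these genes carry the same uncertainty.

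CKD against sham under vehicle compares hearts that had received culture medium only. The 3 activators were higher and the REV-ERB and DEC genes lower in CKD-vehicle, but no difference passed the threshold (edgeR's quasi-likelihood test, Benjamini-Hochberg adjusted p under 0.05 over 24273 genes). The log2 fold change was 0.82 ± 0.35 for Arntl, 0.39 ± 0.13 for Clock and 0.69 ± 0.29 for Npas2 (± SE throughout). It was −0.47 ± 0.21 for Nr1d1, −0.41 ± 0.23 for Nr1d2, −0.38 ± 0.12 for Bhlhe40 and −0.52 ± 0.16 for Bhlhe41, and −0.05 ± 0.09 for Rora. Adjusted p-values from edgeR were 0.952 to 0.957 for the 8 genes. Of all genes tested, 2 were called, or 0.00824%. Without adjustment, 1083 genes and 6 of the 8 had a p under 0.05, and limma voom called 1 of the 8, Bhlhe40, while DESeq2 called 0. Here and below, the share of all genes called is given for the main edgeR fits only, and not for the alternatives. The median size of the difference was 0.44 over the 8 genes and 0.18 over all genes. None of the 8 separated the groups without overlap, which 0.128% of all genes did.

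Oxf against vehicle in CKD hearts showed the opposite signs. The CKD-vehicle hearts stand on opposite sides of these comparisons, so a shift of that group alone would give opposite signs in both. Bhlhe41 rose, with a log2 fold change of 0.88 ± 0.17, a 1.84-fold difference (edgeR adjusted p = 0.0416), and it was the only one of the 8 called. Over all genes, 8 were called, or 0.033%, and 3178 genes, 6 of the 8 among them, had an unadjusted p under 0.05. For the activators, the differences were −1.85 ± 0.40 for Arntl (adjusted p = 0.0971), −0.65 ± 0.15 for Clock (adjusted p = 0.131) and −1.31 ± 0.32 for Npas2 (adjusted p = 0.158). They were 0.72 ± 0.23 for Nr1d1, 0.48 ± 0.24 for Nr1d2, 0.46 ± 0.13 for Bhlhe40 and 0.07 ± 0.10 for Rora, with adjusted p-values of 0.196 to 0.807. Arntl, lower in every CKD-Oxf heart, and Bhlhe41, higher in every one, separated these groups without overlap, which 0.478% of all genes did. The median size of the difference was 0.68 over the 8 genes and 0.26 over all genes.

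The number of calls in this comparison depended on the model and on single hearts. How many of all genes passed in these other fits is not given here. Their counts therefore do not show whether the change was particular to the 8. Without mouse 934 of CKD-Oxf, 5 of the 8 passed with edgeR: Arntl at −1.75 (adjusted p = 0.0358), Clock at −0.71 (adjusted p = 0.0357), Npas2 at −1.19 (adjusted p = 0.042), Nr1d1 at 0.81 (adjusted p = 0.044) and Bhlhe41 at 0.88 (adjusted p = 0.0358). With mouse number, centred within groups, added to the model, 4 passed: Arntl at −1.83 ± 0.28 (edgeR adjusted p = 0.00138), Clock at −0.63 ± 0.12 (adjusted p = 0.0169), Npas2 at −1.35 ± 0.25 (adjusted p = 0.0175) and Bhlhe41 at 0.88 ± 0.14 (adjusted p = 0.00322). Because the number was centred within groups, this model takes up spread within groups and cannot adjust a group difference for mouse number. The call of Bhlhe41 was kept in 15 of 37 alternatives, with adjusted p-values of 0.00102 to 0.286 and a log2 fold change of 0.75 to 0.96.

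Oxf against vehicle in sham hearts had Arntl at −2.36 ± 0.44 (edgeR adjusted p = 0.103), the smallest unadjusted p of the 24273 genes, and Bhlhe41 at 0.72 ± 0.16 (adjusted p = 0.103). Clock stood at −0.54 ± 0.15, Npas2 at −0.83 ± 0.33, Rora at 0.21 ± 0.10, Nr1d2 at 0.16 ± 0.23, Bhlhe40 at 0.14 ± 0.13 and Nr1d1 at 0.10 ± 0.22, with adjusted p-values of 0.168 to 0.893. None of the 8, and none of all genes (0%), passed with edgeR; 3054 genes, 5 of the 8 among them, had an unadjusted p under 0.05, DESeq2 called 3 of the 8 and limma voom 1. Bhlhe41 separated the groups without overlap, as did 0.227% of all genes. With mouse number centred within groups in the model, which cannot adjust a group difference for number, Arntl at −2.21 ± 0.32 (edgeR adjusted p = 0.003) and Bhlhe41 at 0.75 ± 0.14 (adjusted p = 0.0394) passed. Without mouse 921, whose library stands apart, Arntl was at −2.35 (adjusted p = 0.22) and Bhlhe41 at 0.76 (adjusted p = 0.253). Without mouse 923, the highest sham-Oxf heart, Arntl passed at −2.75 (adjusted p = 0.045).

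CKD against sham among colonized mice left small differences except for Arntl, whose level was 2.53-fold higher in CKD-Oxf (log2 1.34 ± 0.44, edgeR adjusted p = 0.331). Bhlhe41 stood at −0.36 ± 0.17, Clock at 0.28 ± 0.16, Npas2 at 0.21 ± 0.35, Rora at −0.20 ± 0.10, Nr1d1 at 0.14 ± 0.24, Nr1d2 at −0.09 ± 0.25 and Bhlhe40 at −0.06 ± 0.13. The share of genes called was 0% with edgeR, none of the 8 among them, and 1997 genes, 2 of the 8 among them, had an unadjusted p under 0.05; DESeq2 and limma voom called 0 of the 8. None of the 8 separated the groups, which 0.272% of all genes did, and their median size of 0.21 was close to the 0.22 over all genes.

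**Figure D2:**
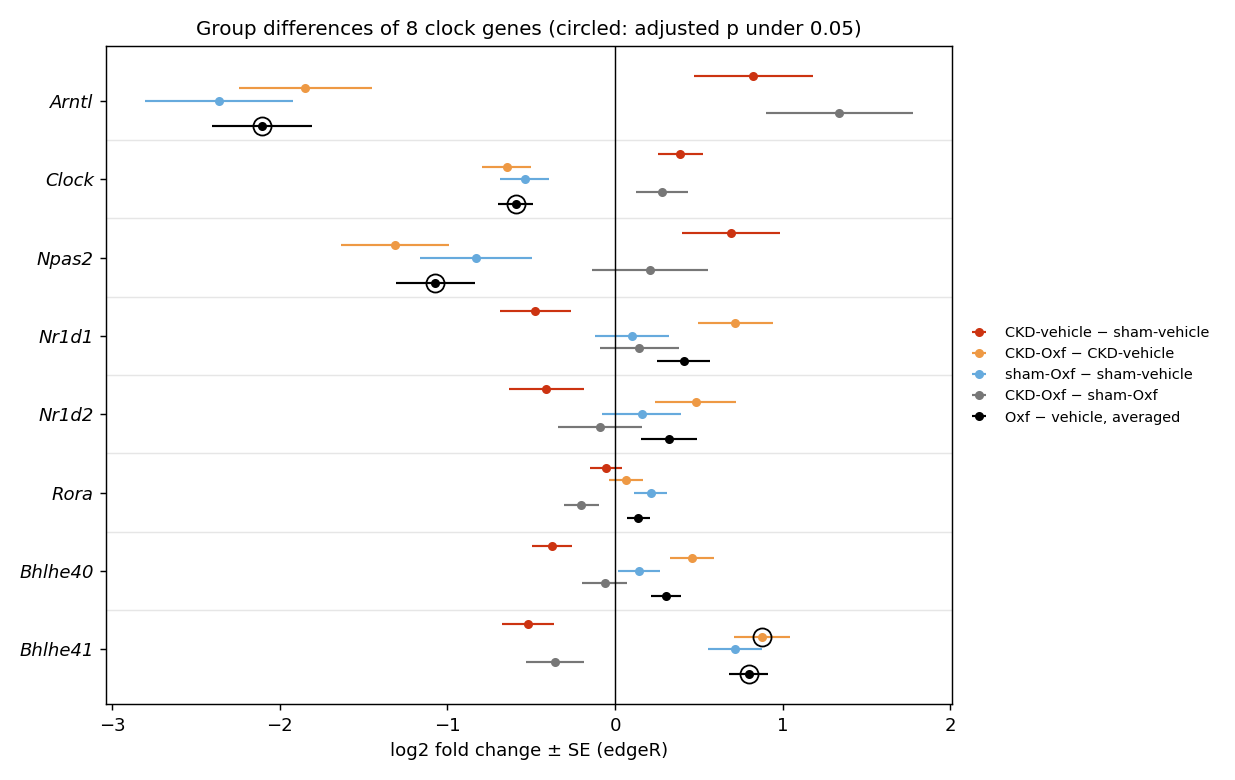
Log2 fold change (x axis) of each of the 8 genes (y axis) in 4 pairwise comparisons and in the Oxf comparison averaged over surgery; points are estimates from edgeR, bars are ± 1 SE, and circles mark an adjusted p under 0.05. Arntl, Clock and Npas2 lie left of 0 and Bhlhe41 right of 0 in every Oxf comparison, with Arntl at −2.11 and Bhlhe41 at 0.80 in the average.

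Averaged over both surgeries, Oxf groups differed from vehicle groups in 4 of the 8 genes. Arntl fell by 2.11 ± 0.30 on the log2 scale, to 0.232 of the vehicle level (edgeR adjusted p = 0.000996). Npas2 fell by 1.07 ± 0.23 (adjusted p = 0.0206) and Clock by 0.59 ± 0.10 (adjusted p = 0.00563), while Bhlhe41 rose by 0.80 ± 0.12, or 1.74-fold (adjusted p = 0.00114). These 4 calls were kept in all 36 alternatives, the removal of each library among them. The other differences were 0.41 ± 0.16 for Nr1d1, 0.32 ± 0.17 for Nr1d2, 0.30 ± 0.09 for Bhlhe40 and 0.14 ± 0.07 for Rora, with adjusted p-values of 0.0576 to 0.252. Over all genes, 681 or 2.81% were called, 307 of them higher and 374 lower, and the median size of the difference was 0.50 over the 8 genes and 0.22 over all. Mouse number, library order and gavage cannot be told apart in this comparison, because every vehicle mouse has a lower number than every Oxf mouse. The time of day of collection is not given, so clock phase at collection cannot be told apart from gavage either. Fibroblast markers had lower medians in both Oxf groups (271.2 and 264.9 CPM) than in both vehicle groups (401.0 and 388.2 CPM), and their part in these differences was not tested.

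Averaged over both gavages, none of the 8 genes passed for CKD against sham, nor did any other gene with edgeR (0%), with 2579 genes and 4 of the 8 at an unadjusted p under 0.05; DESeq2 called 1 of the 8 (Arntl) and limma voom 1 (Bhlhe41). Arntl was at 1.08 ± 0.28 and Bhlhe41 at −0.44 ± 0.12 (edgeR adjusted p = 0.23 for both). Npas2 stood at 0.45 ± 0.23, Clock at 0.34 ± 0.10, Nr1d2 at −0.25 ± 0.17, Bhlhe40 at −0.22 ± 0.09, Nr1d1 at −0.17 ± 0.16 and Rora at −0.13 ± 0.07, with adjusted p-values of 0.272 to 0.733. With mouse number centred within groups in the model, Arntl passed at 1.18 ± 0.20 (edgeR adjusted p = 0.0412). That model too takes up spread within groups and cannot adjust the group difference for mouse number. The interaction of surgery and gavage, which tests whether the Oxf difference itself differed between CKD and sham hearts, gave an edgeR adjusted p of 1 for each of the 8. It called 0% of genes, with 862 genes and 0 of the 8 at an unadjusted p under 0.05, and DESeq2 and limma voom called 0 of the 8. The interaction was 0.62 ± 0.32 for Nr1d1, 0.51 ± 0.56 for Arntl, 0.32 ± 0.34 for Nr1d2, 0.31 ± 0.18 for Bhlhe40 and 0.16 ± 0.23 for Bhlhe41, and −0.48 ± 0.45 for Npas2, −0.15 ± 0.14 for Rora and −0.11 ± 0.21 for Clock. With 1 library left out, the interaction of Arntl ran from 0.19 (without mouse 931) to 0.90 (without mouse 923), that of Bhlhe41 from 0.03 (without mouse 936) to 0.24 and that of Npas2 from −0.77 (without mouse 931) to −0.30 (without mouse 921).

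Within sham-vehicle, the activators were lower and the REV-ERB and DEC genes higher in mice with higher numbers, which were also later in library order. Arntl fell by 0.31 ± 0.05 on the log2 scale per mouse number (edgeR adjusted p = 0.0428), from 27.4 and 25.9 CPM in mice 901 and 902 to 3.65 and 4.62 CPM in mice 909 and 910. It was the only one of the 8 called; 3 genes or 0.0124% were called in all, the others being Dbp, a clock output factor, at 0.22 ± 0.03 (adjusted p = 0.00594) and Tef, its paralog, at 0.17 ± 0.03 (adjusted p = 0.029). An unadjusted p under 0.05 was found for 219 genes, 7 of the 8 among them. Slopes were −0.18 ± 0.05 for Npas2, −0.08 ± 0.02 for Clock, 0.14 ± 0.04 for Nr1d2, 0.11 ± 0.03 for Bhlhe41, 0.08 ± 0.04 for Nr1d1, 0.05 ± 0.02 for Bhlhe40 and 0.01 ± 0.02 for Rora, with adjusted p-values of 0.695 to 1. The Arntl slope kept its sign with each library left out, between −0.32 and −0.28, but passed in 9 of these 28 fits, with adjusted p-values of up to 0.562, the last without mouse 909.

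Within the other groups, none of the 8 slopes passed with edgeR. In CKD-vehicle, Arntl was lower at each of the 5 steps from one mouse number to the next, with a slope of −0.13 ± 0.07, and Nr1d1 had 0.17 ± 0.05 (edgeR adjusted p = 0.896 for both). How many of all genes moved in a single direction over all steps of a group is not given here. Mice 916 and 919, with the lowest and highest Nr1d1 of CKD-vehicle, had its highest and lowest 7SL share (21.0% and 2.26%). The other slopes in CKD-vehicle were 0.10 ± 0.05 for Nr1d2, −0.09 ± 0.03 for Clock, −0.08 ± 0.07 for Npas2, 0.06 ± 0.03 for Bhlhe40, 0.05 ± 0.04 for Bhlhe41 and −0.02 ± 0.03 for Rora. Here 1 gene or 0.00412% was called, Dbp at 0.36 ± 0.05 (adjusted p = 0.00325), with 592 genes and 2 of the 8 at an unadjusted p under 0.05, while DESeq2 called 0 of the 8 and limma voom 4. In sham-Oxf, Nr1d2 was higher at each of 4 steps, with a slope of 0.16 ± 0.05 (edgeR adjusted p = 0.126), and 0.12 without mouse 921 (adjusted p = 0.98). The others had −0.14 ± 0.08 (Arntl), −0.09 ± 0.07 (Npas2), −0.04 ± 0.05 (Nr1d1), −0.03 ± 0.03 (Clock), −0.03 ± 0.03 (Bhlhe40), −0.01 ± 0.04 (Bhlhe41) and 0.01 ± 0.03 (Rora). In this group 344 genes or 1.42% were called, with 4836 genes and 1 of the 8 at an unadjusted p under 0.05, and DESeq2 called 1 of the 8, Nr1d2. Mouse 921, whose library stands apart, has the lowest number of this group. In CKD-Oxf, Npas2 had −0.12 ± 0.06 and Arntl −0.10 ± 0.05 (edgeR adjusted p = 1 for both); 0% of genes were called, with 1185 genes and 1 of the 8 at an unadjusted p under 0.05, and DESeq2 and limma voom called 0 of the 8. The others had −0.07 ± 0.04 (Nr1d1), −0.04 ± 0.03 (Clock), 0.04 ± 0.03 (Bhlhe41), 0.01 ± 0.03 (Rora), 0.01 ± 0.03 (Bhlhe40) and 0.01 ± 0.05 (Nr1d2). The slopes in CKD-Oxf changed with its first and last mouse: without mouse 931 that of Arntl was 0.01 and that of Npas2 −0.02, and without mouse 940 they were −0.36 and −0.31.

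**Figure D3:**
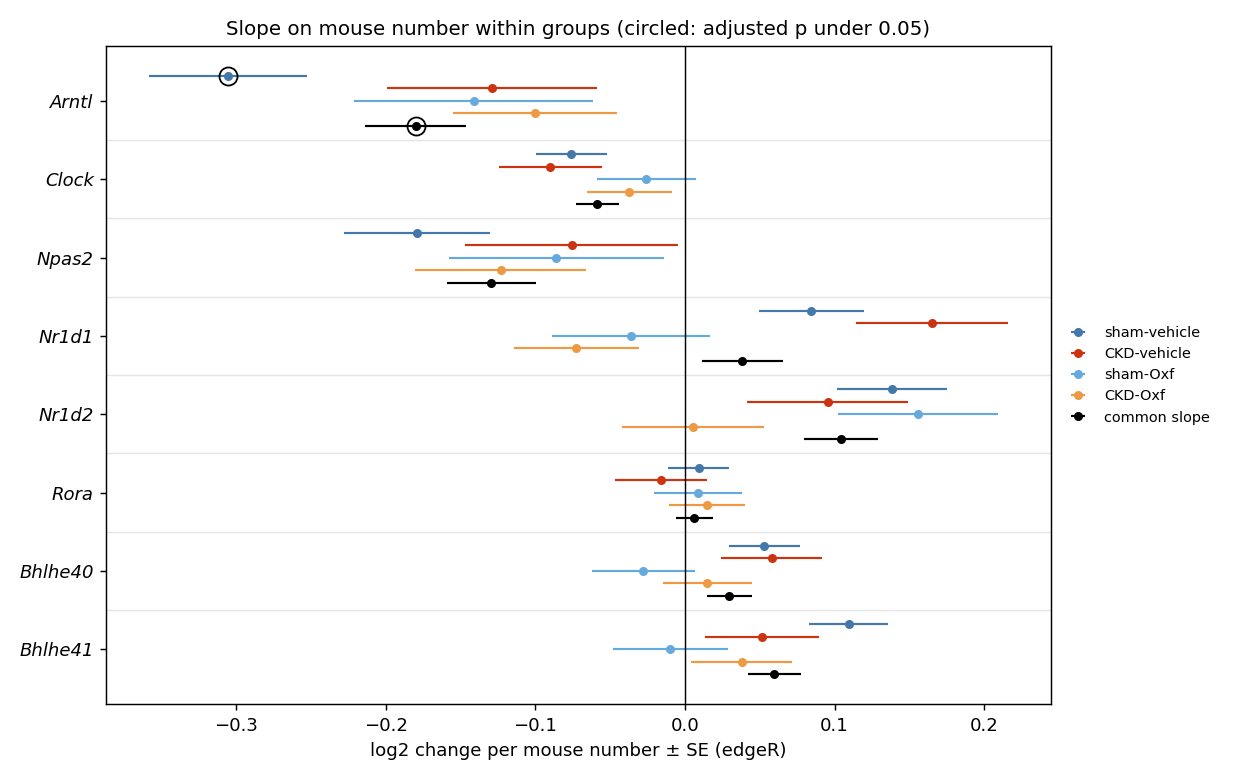
Slope on mouse number (x axis, log2 change per mouse number) of each of the 8 genes (y axis) in each group and as 1 common slope; points are estimates from edgeR, bars are ± 1 SE, and circles mark an adjusted p under 0.05. The 4 slopes of Arntl, Clock and Npas2 all lie left of 0, from −0.31 to −0.03, and those of Nr1d1 lie on both sides. Without mouse 921 the Clock slope in sham-Oxf was 0.03, and without mouse 931 the Arntl slope in CKD-Oxf was 0.01.

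With 1 slope shared by the 4 groups, Arntl fell by 0.18 ± 0.03 on the log2 scale per mouse number (edgeR adjusted p = 0.0281), which made it 1 of 9 genes called, or 0.0371%. Of the 1335 genes at an unadjusted p under 0.05, 5 were among the 8. The common slope was −0.13 ± 0.03 for Npas2, −0.06 ± 0.01 for Clock, 0.10 ± 0.02 for Nr1d2, 0.06 ± 0.02 for Bhlhe41, 0.04 ± 0.03 for Nr1d1, 0.03 ± 0.02 for Bhlhe40 and 0.01 ± 0.01 for Rora, with adjusted p-values of 0.169 to 0.901. The Arntl call was kept in 12 of 28 fits with a library left out, and without mouse 931 the slope was −0.16 (adjusted p = 0.199). A test of whether the slopes differed between the groups called none of the 8 and 0% of all genes with edgeR, with 1803 genes and 1 of the 8 (Nr1d1) below 0.05 without adjustment; the adjusted p of Nr1d1 was 0.421. DESeq2 called 0 of the 8 in that test, and limma voom called 2, Arntl and Nr1d1.

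The difference between Arntl and Nr1d1 in log2 CPM, which sets an activator against the receptor that represses it within each heart, had −5.53, −3.12 and −1.82 as lowest, median and highest value in sham-vehicle and −2.99, −1.85 and −0.94 in CKD-vehicle. In sham-Oxf the 5 mice had −5.74, −4.88, −6.15, −6.25 and −5.89, and in CKD-Oxf the values were −5.20, −4.69 and −3.89. Mice 901 and 909 mark the ends of the sham-vehicle range, which overlapped every other group. CKD-vehicle did not overlap either Oxf group, and how often differences between other genes do so was not counted. These values are a description, and both genes belong to the chosen 8. The values were not divided by exon length, which would shift every heart by the same amount, so they compare hearts and not the levels of the 2 genes.

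**Figure D4:**
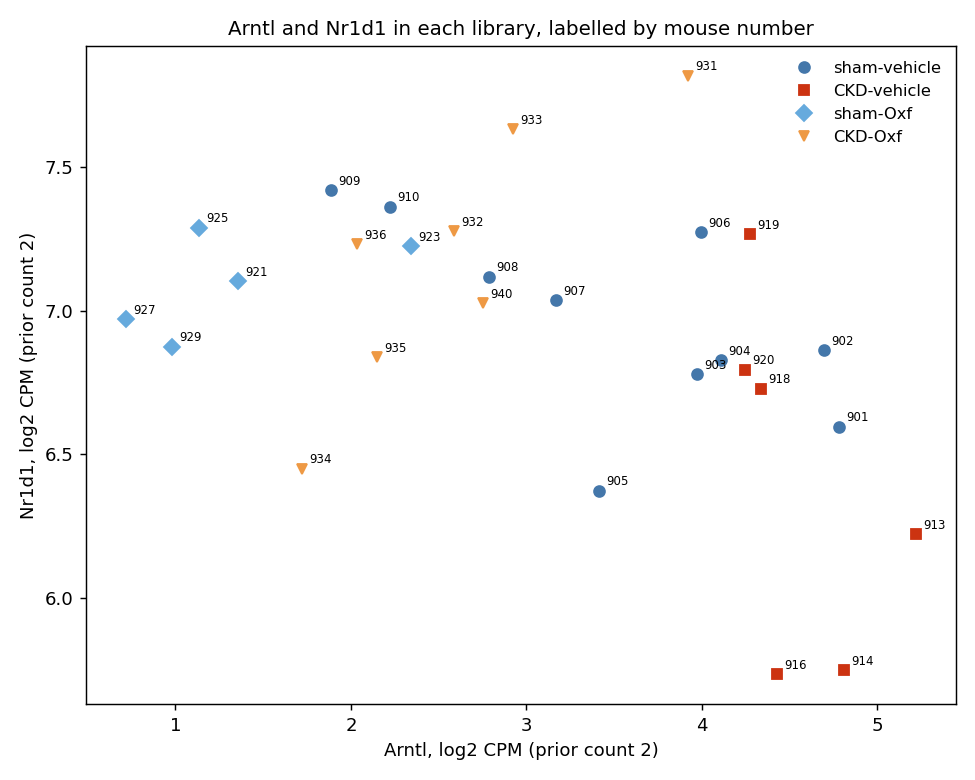
Nr1d1 (y axis) against Arntl (x axis), both in log2 CPM with a prior count of 2, with 1 point per heart labelled by mouse number and coloured by group. CKD-vehicle mice 913, 914 and 916 lie at the lower right, with 21.5 to 37.3 CPM of Arntl and 53.2 to 74.6 CPM of Nr1d1, and the sham-Oxf hearts lie at the left.

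Other genes of the loop were taken from lists of known clock genes. In the Oxf comparison averaged over surgery, 2.81% of all genes were called. There 4 of 6 genes of the negative limb passed, all higher: Ciart by 1.59 ± 0.34, Per3 by 1.43 ± 0.26, Per2 by 1.36 ± 0.36 and Cry2 by 0.72 ± 0.13 (edgeR adjusted p = 0.0193, 0.00818, 0.0414 and 0.00563). These genes encode repressors of the BMAL1 pair. The list median was 1.10, against 0.003 over all genes, and the lowest of the 6 was 0.34. All 4 genes of the PAR bZIP list passed, with Dbp at 1.51 ± 0.24, Tef at 1.18 ± 0.19 and Hlf at 1.07 ± 0.16, which are activators at D-boxes, higher, and Nfil3, the repressor at the same sites, lower at −0.87 ± 0.20 (adjusted p = 0.00211 to 0.0295). Of 12 E-box targets tested, which include several of the genes above, 9 passed, all higher. The list median was 1.04, and the lowest of the 12 was 0.34. The 9 that passed were all named above except Wee1, a cell cycle kinase, at 1.00 ± 0.18 and Usp2, a ubiquitin protease, at 0.57 ± 0.12.

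In the same comparison, fewer genes passed in the other lists. Of 4 genes with REV-ERB and ROR response elements, 1 passed, Nfil3, which fell. Of 11 enzymes that modify clock proteins, 1 passed: Csnk1d, a casein kinase, at 0.27 ± 0.07 (adjusted p = 0.0473), with a list median of −0.03. In Oxf against vehicle in CKD hearts, 1 of 6 negative limb genes (Cry2) and 3 of 4 PAR bZIP genes (Dbp, Hlf and Tef) passed, all higher, against 0.033% of all genes. The 4 of 12 E-box targets that passed were these same genes. With the common slope on mouse number, 3 of 6 (Ciart, Per2 and Per3) and 2 of 4 (Tef and Dbp) passed, against 0.0371% of all genes. All had positive slopes, where the slope of Arntl was negative, and the 5 of 12 E-box targets that passed were again the same genes.

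Likeness was measured as Pearson's r of log2 CPM after subtraction of the group means, over 28 hearts and 13905 genes, and is given as a description; the hearts share library order and depth. The genes most like Arntl were Npas2 (r = 0.81), Clmp (0.73) and Iffo2 (0.69), and the most opposite were Wee1 (−0.81), Nr1d2 (−0.81) and Pik3ip1 (−0.75). The genes most like Npas2 were Adam19 (0.86), Fbn1 (0.84) and Dtx4 (0.84), and Nr1d2 was the most opposite (−0.86). Clock was most like Lhfp (0.86) and most opposite to Per3 (−0.91). Nr1d2 was most like Sesn1 (0.88) and most opposite to Npas2 (−0.86), Mmp14 (−0.84) and Arntl (−0.81).

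Bhlhe41 was most like Dbp (0.76), Mthfd1l (0.72) and Hlf (0.68) and most opposite to Phc2 (−0.72), Nfil3 (−0.69) and Clock (−0.68). Its paralog Bhlhe40 had weaker neighbours, Wee1 at 0.67 and Mecom at −0.66. Rora was most like Aldh1a1 (0.84) and most opposite to Myo1e (−0.87), and Nr1d1 was most like Tns2 (0.86) and most opposite to Rpl24 (−0.84), with none of the listed clock genes among the 6 neighbours of either. Without mouse 921, 33 of the 48 neighbours stayed among the named ones, 6 of 6 for Npas2 and 2 of 6 for Nr1d1.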

How the data were processed

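Total RNA of ventricular myocardium from 28 mice was sequenced on an Illumina NovaSeq instrument, per the labels' protocols. The values are whole-number counts per gene, deposited by the authors in 1 table. The submitters' processing notes name build mm10, STAR 2.6.1d, Subread, featureCounts 1.6.3, FastQC 0.11.7 and MultiQC 1.9; annotation and strand setting are not given in the sources used here. Columns were matched to mice by the sample identifier, and 0 columns were left without a sample.

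Counts were analysed in R 4.3.3 with edgeR 4.0.16: TMM factors, filterByExpr by group (minimum count 10), robust dispersions, and the quasi-likelihood F test with Benjamini-Hochberg adjustment over 24273 genes and a threshold of 0.05. The models held 4 group means with 7 contrasts, 4 slopes on mouse number centred within groups, or 1 common slope. A standard error is the size of the log2 effect divided by the square root of F. CPM are counts scaled to the usual reference size of the filtered library, after TMM factors, and log2 CPM used a prior count of 2. Values of all 8 genes are given in each comparison, except the test between slopes; from the pathway lists, those that passed and at most the 3 with the smallest p were named. The test was checked on simulated data. P-values measure the spread between mice, of which each gave 1 library. Depths of 19.8 M to 65.4 M counts set the counting precision, and the 8 genes held at least 53 counts in a library.

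The members, the pathway lists and the marker lists were chosen with earlier results of these data known. Positions came from GENCODE M21 (GRCm38). The alternatives were DESeq2 1.42.0, voom with sample weights in limma 3.58.1, DESeq2 size factors in edgeR, 2 other filters, smaller sets of samples, the 7SL share or mouse number (centred within groups) as a covariate, and each library left out. Leaving out mice 921 and 934 together was added after seeing the data. A further list, of nuclear receptor partners, is not reported here, for a reason that does not rest on its values.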

Additional observations from a re-analysis of the deposited data

Results flagged for a closer look

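In 36 groups of 5 to 10 hearts (the 8 genes, and Arntl minus Nr1d1, in each group), 5 had a heart whose gap to its nearest neighbour took up more of the range of log2 CPM than the 95% limit for the group size. Chance gives about 1 in 20 for a single group. The 36 share the same hearts, and Arntl minus Nr1d1 is formed from members of the 8. The 5 can therefore not be set against that rate. Npas2 in CKD-vehicle was 14.8 CPM in mouse 913 and 9.92 CPM in the next heart, a gap of 0.674 of the range. Npas2 in sham-Oxf was 5.31 CPM in mouse 921, whose library stands apart, and 3.31 CPM in the next, a gap of 0.821. Rora in CKD-vehicle was 45.4 CPM in mouse 916 and 36.6 CPM in the next, a gap of 0.684. Bhlhe41 in CKD-vehicle was 12.6 CPM in mouse 919 and 9.88 CPM in the next, a gap of 0.626. Bhlhe41 in CKD-Oxf was 27.6 CPM in mouse 936 and 18.7 CPM in the next, a gap of 0.685.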

How the results depend on the processing

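Over the 8 genes, the comparisons and the slopes, 3760 single values were recomputed: 3619 kept their direction and their side of the threshold, 57 no longer passed, 66 newly passed and 18 changed sign. Arntl, Clock, Npas2 and Bhlhe41 in the Oxf comparison averaged over surgery passed in all 36 alternatives. DESeq2 size factors in place of TMM moved the median of all genes by at most 0.024 on the log2 scale. Where a count moved, the cause was not tested. No paired analysis was possible because each mouse has a number of its own and the groups share none.

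The number of the 8 genes called changed as follows. How many of all genes each of these settings called is not given here. The counts below therefore do not show whether a change was particular to the 8. For CKD-vehicle against sham-vehicle, limma voom called 1 in place of 0. For CKD-Oxf against CKD-vehicle, DESeq2 called 5, limma voom 6, mouse number as a covariate 4 and the removal of both mice 921 and 934 called 6, in place of 1, while DESeq2 size factors, no filter, the 7SL share as a covariate and a fit of only these groups called 0; with 1 library left out the count was 0 to 5. For sham-Oxf against sham-vehicle, DESeq2 called 3, mouse number as a covariate 2, and limma voom and the 7SL share 1 each, in place of 0; with 1 library left out the count was 0 to 1. For Oxf averaged over surgery, limma voom called 8 in place of 4, the removal of both mice 921 and 934 called 6, mouse number as a covariate, DESeq2 and a filter of at least 10 counts in every library 5 each, and the count was 4 to 6 with 1 library left out. For CKD averaged over gavage, DESeq2, limma voom and mouse number as a covariate each called 1 in place of 0.

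For the slope in sham-vehicle the count was 0 to 1 with 1 library left out, which included libraries of the other groups. For the slope in CKD-vehicle limma voom called 4, for the slope in sham-Oxf DESeq2 and the 7SL share each called 1, and for the difference between slopes limma voom called 2, each in place of 0. For the common slope DESeq2 and limma voom each called 4 and the 7SL share 3, in place of 1, and the count was 0 to 2 with 1 library left out.

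Signs changed only for effects that were not called. With the 7SL share, Nr1d1 in sham-Oxf against sham-vehicle was −0.14. With limma voom, Nr1d2 in the interaction was −0.0445, and Clock for the slope in sham-Oxf was 0.0039; without mice 921 and 934 the latter was 0.028. With 1 library left out, Npas2 in CKD-Oxf against sham-Oxf ranged over −0.12 to 0.40 and Nr1d2 over −0.238 to 0.0325. Slopes with 1 library left out ranged over −0.0020 to 0.029 for Rora in sham-vehicle, −0.035 to 0.0017 for Rora in CKD-vehicle, −0.048 to 0.028 for Clock, −0.0059 to 0.042 for Rora and −0.059 to 0.0066 for Bhlhe41 in sham-Oxf, and −0.36 to 0.013 for Arntl, −0.029 to 0.076 for Nr1d2 and −0.012 to 0.026 for Rora in CKD-Oxf.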
